A study of Mus musculus with 6 samples.

Results

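The clustered histone genes are the protein-coding mouse genes whose symbols start with Hist1h, Hist2h, Hist3h or Hist4h in the GENCODE M21 annotation of the GRCm38 build. The rule uses the name and biotype and no measured value. The annotation holds 67 such genes, of which 57 had a row among the 28914 genes of the deposited table. The other 10 were not analysed here. By class, the 57 genes comprised 5 for the linker histone H1, 13 for H2A, 17 for H2B, 9 for H3 and 13 for H4. Chromosome 13 carries 49 of them between positions 21715763 and 23934156, a stretch of 2.22 Mb. Chromosome 3 carries 5, chromosome 11 carries 2 and chromosome 6 carries 1.

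Expression was measured by RNA sequencing of unfractionated splenic CD4 T cells isolated by sorting from NOD mice, which are prone to spontaneous autoimmune diabetes. All mice were 12 weeks old, and the cells were taken at steady state with no further T cell receptor stimulation. The 6 libraries form 3 groups of 2, namely Blimp-1 overexpression (BTg), Blimp-1 deficiency by label (CKO) and control cells labelled WT. Prdm1 encodes Blimp-1, a repressor of transcription with zinc fingers. The sources used here do not give the promoter that drives the transgene, the Cre line or the deleted exons. Whether both libraries of a group derive from different mice is not stated in the labels, and p-values therefore measure only the spread between these libraries.

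Histones package DNA into nucleosomes, in which H2A, H2B, H3 and H4 form the core and H1 binds the linker DNA. The clustered genes are the replication-dependent ones, which dividing cells transcribe mainly during S phase to cover newly made DNA. Most of their messages are not polyadenylated and end instead just past a stem-loop, which is bound by the stem-loop binding protein Slbp and cut by a dedicated processing machinery. Replication-independent variants such as H2afz, H3f3a and H3f3b are encoded elsewhere and make ordinary polyadenylated messages. The sources used here do not give how RNA was selected for the libraries, and its part in the levels below was not tested.

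The stem-loop was present in the annotated transcripts of 35 of the 57 genes, between 24 and 54 bases after the stop codon (median 31). The same search found it in 51 of 58797 protein-coding transcripts, or 0.0867%. Of the 22 genes without a match, 13 have under 20 annotated bases after the stop codon, so that the window ends before the stem-loop could appear. The 35 genes used 5 spellings of the 16 bases of the hairpin, and the commonest was shared by 21 genes. A spelling with a different stem was found in 7 genes, all of class H4. The forms are shown because they separate H4 from the other classes. Each is given 5′ to 3′ in DNA letters from the annotated transcripts of GENCODE M21, with the hairpin in capitals and 5 bases on either side.
Hist1h1c: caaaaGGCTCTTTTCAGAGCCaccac
Hist1h2ag: acaaaGGCTCTTTTCAGAGCCaccta
Hist3h2ba: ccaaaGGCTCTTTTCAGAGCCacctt
Hist1h3e: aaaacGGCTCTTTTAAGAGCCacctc
Hist1h4n: ctaaaGGCCCTTTTCAGGGCCatcca
Hist1h4h: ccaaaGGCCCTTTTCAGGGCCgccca
Hist1h4j: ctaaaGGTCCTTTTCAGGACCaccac

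On GRCm38 these lie at chr13:23739507-23739532 (plus strand) for Hist1h1c, chr13:22042478-22042503 (minus strand) for Hist1h2ag and chr11:58949344-58949369 (plus strand) for Hist3h2ba. The others lie at chr13:23561898-23561923 (minus strand) for Hist1h3e, chr13:21831793-21831818 (minus strand) for Hist1h4n, chr13:23531453-23531478 (plus strand) for Hist1h4h and chr13:21735432-21735457 (plus strand) for Hist1h4j. All 7 sites lie in the 3′ UTR. The annotation ran more than 100 bases past the hairpin in 19 genes and stopped within 100 bases of it in 16. The median level was 0.590 FPKM (fragments per kilobase of gene length and library size) in the 19 genes, 0.529 FPKM in the 16 and 0.588 FPKM in the 22 without a match. A polyadenylation signal, AATAAA or ATTAAA, was found within 40 bases of the annotated end in 15 of the 57 genes (26.3%), against 48.7% of all coding transcripts. A gene counted if any of its transcripts had the signal, while the share over all is per transcript. The 15 genes had a median of 0.861 FPKM and the other 42 a median of 0.414 FPKM. A mean of at least 1 FPKM was reached by 6 of the 15 and by 15 of the 42. Hist1h1c was among the 15, and its annotated end lies 840 bases beyond its hairpin.

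Promoter sequence, from 250 bases before to 50 bases after the start, was matched in RefSeq (GRCm38.p6) for 52 of the 57 genes. Each motif was sought on both strands, overlapping matches allowed. CCAAT was present in 43 of the 52 (82.7%), against 41.1% of 27025 genes. TATAAA was present in 32 (61.5%), against 15.7%. AAACACA was present in 7 (13.5%), against 8.22%, and 4 of the 7 were among the 5 H1 genes. GGTCCG was present in 13 (25.0%), against 9.44%, and 11 of the 13 were H4 genes, out of 12 H4 promoters matched. CCAAT was found in all 5 H1, 13 H2A, 15 H2B and 7 H3 promoters and in 3 of the 12 H4 promoters. AGNGAAAG, sought as the letters of a Blimp-1 binding motif, was present in 6 of the 52 (11.5%), against 9.91% of all genes. A match describes letters only, and no binding was measured. The promoters of an H1 and an H4 gene are given to show this contrast, with matches to these motifs in capitals.
Hist1h1c: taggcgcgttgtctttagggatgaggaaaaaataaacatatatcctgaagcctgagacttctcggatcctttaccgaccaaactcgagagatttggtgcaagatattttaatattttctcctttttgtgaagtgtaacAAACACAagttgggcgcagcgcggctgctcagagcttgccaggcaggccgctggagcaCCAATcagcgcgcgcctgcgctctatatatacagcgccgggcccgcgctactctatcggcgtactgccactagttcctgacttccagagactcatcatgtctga
Hist1h4h: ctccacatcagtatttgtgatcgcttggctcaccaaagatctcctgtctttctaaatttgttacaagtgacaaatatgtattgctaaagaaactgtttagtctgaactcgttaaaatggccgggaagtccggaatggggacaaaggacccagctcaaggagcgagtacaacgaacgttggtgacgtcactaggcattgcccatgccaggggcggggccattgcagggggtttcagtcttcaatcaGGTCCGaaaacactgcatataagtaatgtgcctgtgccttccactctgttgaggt

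These promoters lie at chr13:23738557-23738856 and chr13:23530794-23531093, both on the plus strand. Neither holds TATAAA or AGNGAAAG. Hist1h1c has the H1-type AAACACA upstream of a CCAAT, and Hist1h4h has the H4-type GGTCCG and no CCAAT.

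The libraries held 15254255 and 14958458 reads in BTg, 17799091 and 17731878 reads in CKO, and 17782999 and 15259455 reads in WT. Prdm1 stood at 19.6 and 30.1 FPKM in BTg, 0.849 and 0.669 FPKM in CKO and 0.458 and 0.628 FPKM in WT. Prdm1 entered the test, which needs at least 1 FPKM in at least 2 libraries, only through its BTg values. As log2(FPKM + 1), it rose by 4.04 (SE 0.26) in BTg relative to WT (limma adjusted p = 0.0221), a call lost with quantile normalization (adjusted p = 0.105), with replicate number as a block (adjusted p = 0.130) and without any 1 of the 4 WT and CKO libraries (adjusted p = 0.149 to 0.546). Relative to WT, the CKO value had not fallen (difference 0.19, SE 0.26, limma adjusted p = 1). For this reason they are written as the libraries labelled CKO, and every direction involving them depends on that label. Markers of CD4 T cells summed to between 1510 and 3047 FPKM in every library, and those of CD8 T cells to at most 0.844 FPKM. Replicate 1 labelled CKO was separated from the other 5 libraries by the first principal component (56.5% of the variance). Its 12 neutrophil markers summed to 8179 FPKM, against 198 FPKM in replicate 2 labelled CKO and 40.8 to 163 FPKM in the BTg and WT libraries. Its 9 B cell markers summed to 3976 FPKM, against 880 to 1192 FPKM in the other 5 libraries. The excess was not shared by the whole B cell list, whose median log2(FPKM + 1) in that library was 0.640. This median was 0.542 in BTg replicate 1 and 0.344 in WT replicate 1, and 0.734 or more in the libraries numbered 2. The 9 plasma cell markers summed to 968 FPKM in replicate 1 labelled CKO, against 96.9 to 259 FPKM in the other 5 libraries. The 8 monocyte and macrophage markers summed to 251 FPKM there, against 9.79 to 37.8 FPKM in the other 5 libraries. The part of the neutrophil, B cell, plasma cell, monocyte and macrophage markers in the histone values was not tested. Values without replicate 1 labelled CKO are given where it decides a result.

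The clustered histone genes had a small share of the reads in these libraries. Together they took 1513 and 917 reads in BTg, 1350 and 980 in the libraries labelled CKO, and 1549 and 1076 in WT. As a share of all reads this was 0.00992% (95% Wilson interval 0.00943 to 0.0104) and 0.00613% (0.00575 to 0.00654) in BTg. It was 0.00758% (0.00719 to 0.00800) and 0.00553% (0.00519 to 0.00588) in the libraries labelled CKO, and 0.00871% (0.00829 to 0.00916) and 0.00705% (0.00664 to 0.00749) in WT. These intervals cover counting error only. The ranges of the 3 groups overlapped, and within each group the library numbered 1 had the larger share, with intervals that did not meet. In bulk libraries, fewer cells carrying these messages and less message per cell cannot be told apart. The part of RNA selection and of the counting of reads with several possible origins in these shares was not tested.

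Most single genes were counted from few reads. The mean over the 6 libraries was under 1 FPKM for 36 of the 57 genes, at least 1 FPKM for 21 and at least 5 FPKM for 2. The median of these means was 0.590 FPKM, against 0.880 FPKM over the 16778 protein-coding genes of the table. Fewer than 10 reads in all 6 libraries together were counted for 14 genes. At least 1 FPKM was reached by 24 and 18 genes in BTg, 22 and 14 in the libraries labelled CKO, and 18 and 19 in WT. A value of 0 was listed for 7 and 12 genes in BTg, 4 and 10 in the libraries labelled CKO, and 10 and 10 in WT. Of 7385 reads on these genes in all, Hist1h1c alone took 35.9%, and Hist1h1c, Hist2h2be and Hist1h4d together took 50.1%.

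**Figure D1:**
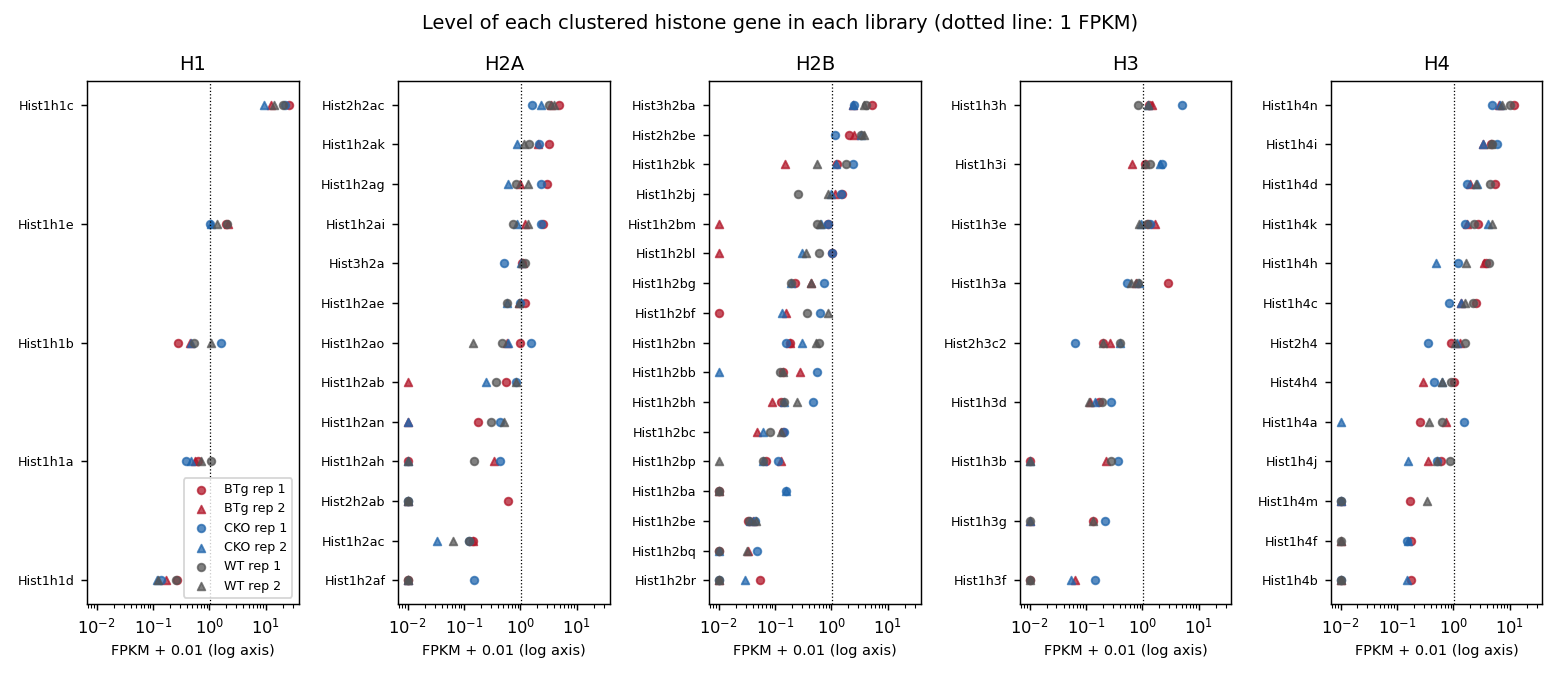
Level of each of the 57 clustered histone genes in each library, by class, as FPKM + 0.01 on a log axis; each row is a gene, colours are the groups BTg, CKO and WT, circles are replicate 1 and triangles replicate 2. Hist1h1c is the highest of the 57 in every library, at 9.33 to 25.7 FPKM, and most genes lie left of the dotted line at 1 FPKM.

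The genes also resemble each other closely, which limits how far reads can be assigned to single genes. Of all 50-base stretches in a gene's annotated transcript, a median of 49.5% also occur in another annotated transcript. More than 50% are shared in 27 genes, whose median level was 0.469 FPKM, and at most 50% in 30, whose median was 0.609 FPKM. Hist1h1a, Hist1h1b and Hist2h2be share none. Hist1h4n and Hist1h3h share 85.6% and 93.9%, so their values depend on how reads with several possible origins were counted, which the sources used here do not give. In addition, 16 genes overlap another annotated gene, 4 of them on the same strand, among these Hist1h1e with Hist1h2be.

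The linker histone H1 binds DNA where it enters and leaves the nucleosome. Its 5 genes encode 5 different proteins of 212 to 223 residues, and they differed 101-fold in mean FPKM. This fold depends on annotated length, since the lowest, Hist1h1d, is divided by 7425 bases. Its 124 reads in all exceeded the 54 of Hist1h1b and the 46 of Hist1h1a, and Hist1h1c had 2650. Hist1h1c stood at 25.7 and 12.3 FPKM in BTg, from 612 and 286 reads. It stood at 21.7 and 9.33 FPKM in the libraries labelled CKO, from 602 and 258 reads, and at 20.2 and 14.0 FPKM in WT, from 559 and 333 reads. The library numbered 1 was the higher in each group, by 2.1-fold in BTg, 2.32-fold in CKO and 1.44-fold in WT, and all 3 groups overlapped. Hist1h1e stood at 1.97 and 2.11 FPKM in BTg, 1.02 and 1.05 FPKM in the libraries labelled CKO, and 2.07 and 1.36 FPKM in WT. The libraries labelled CKO were the lowest of the 6 for Hist1h1e, and it shares its position with Hist1h2be. Hist1h1b stood at 0.265 and 0.450 FPKM in BTg, 1.59 and 0.455 FPKM in the libraries labelled CKO, and 0.530 and 1.06 FPKM in WT, from 3 to 21 reads a library. Hist1h1a and Hist1h1d averaged 0.628 and 0.170 FPKM.

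H2A and H2B pair as dimers in the nucleosome core. The 13 H2A genes encode 7 different proteins, and 7 of the genes encode the same protein while differing 15.8-fold in mean FPKM, between 0.0948 and 1.5. This fold also depends on annotated length. The lowest of the 7, Hist1h2ac, had 23 reads in all on 2482 bases, and the highest, Hist1h2ag, 71 on 485 bases. Hist2h2ac, on chromosome 3, was the highest, at 4.79 and 3.47 FPKM in BTg, 1.62 and 2.28 FPKM in the libraries labelled CKO, and 3.24 and 3.91 FPKM in WT. The libraries labelled CKO were the lowest pair, below every BTg and WT library. Hist1h2ak stood at 3.17 and 2.04 FPKM in BTg, 2.14 and 0.861 FPKM in the libraries labelled CKO, and 1.43 and 1.17 FPKM in WT. Hist1h2ag stood at 2.97 and 0.965 FPKM in BTg, 2.32 and 0.581 FPKM in the libraries labelled CKO, and 0.812 and 1.35 FPKM in WT. Both BTg libraries lay above both WT libraries for Hist1h2ak, while all groups overlapped for Hist1h2ag. The other 10 H2A genes averaged between 0.0235 and 1.48 FPKM.

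The 17 H2B genes encode 11 different proteins when the longest annotated protein of each gene is taken. They include the 5 genes of the whole set with transcripts of more than 1 exon (Hist1h2bc, Hist1h2be, Hist1h2bp, Hist1h2bq and Hist1h2br), which averaged 0.0107 to 0.0908 FPKM. The deposited values divide by a length that includes introns, which lowers the FPKM of these 5 genes relative to the 52 single-exon ones. Hist3h2ba, on chromosome 11, was the highest, at 5.23 and 2.40 FPKM in BTg, 2.47 and 2.39 FPKM in the libraries labelled CKO, and 4.12 and 3.74 FPKM in WT. Hist2h2be stood at 2.08 and 2.55 FPKM in BTg, 1.16 and 3.38 FPKM in the libraries labelled CKO, and 3.33 and 3.73 FPKM in WT, and its 698 reads in all make it the second most counted gene of the set. Both BTg libraries lay below both WT libraries for Hist2h2be, and the libraries labelled CKO lay on either side of BTg. Hist1h2bk stood at 1.24 and 0.140 FPKM in BTg, 2.36 and 1.18 FPKM in the libraries labelled CKO, and 1.77 and 0.551 FPKM in WT, with 1 to 20 reads a library. Hist1h2bj, which encodes the commonest H2B protein, stood at 1.56 and 1.16 FPKM in BTg, 1.46 and 0.974 FPKM in the libraries labelled CKO, and 0.243 and 0.849 FPKM in WT. The WT libraries were the lowest pair for Hist1h2bj, on 2 and 6 reads.

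Divergent H2A and H2B genes, which face away from each other across a shared upstream region, formed 9 pairs with starts 176 to 302 bases apart. In 6 of the pairs both genes have 1 exon, and the H2A gene was the higher in 5 of these 6, by 1.19-fold to 5.70-fold, while Hist1h2bk was 8.19-fold above Hist1h2ah. The other 3 pairs hold an H2B gene of more than 1 exon (Hist1h2bp, Hist1h2bq or Hist1h2bc), whose FPKM is divided by a length that includes introns. As deposited, the H2A gene was the higher in 8 of the 9 pairs. Per exon length, a comparison chosen after the data were seen, it was the higher in 7 of the 9, because Hist1h2bc then stood 7.22-fold above Hist1h2ac. Hist2h2ac and Hist2h2be, with starts 239 bases apart, averaged 3.22 and 2.70 FPKM.

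H3 forms a tetramer with H4 and carries the tail on which many histone marks are placed. The 9 H3 genes encode 2 proteins that are 99.3% identical, one made by 4 genes and the other by 5. Hist1h3h stood at 1.28 and 1.46 FPKM in BTg, 5.06 and 1.23 FPKM in the libraries labelled CKO, and 0.821 and 1.28 FPKM in WT. The value of replicate 1 labelled CKO, from 37 reads, was apart from the other 5 libraries, which had 6 to 9 reads. Hist1h3i stood at 1.12 and 0.651 FPKM in BTg, 2.19 and 2.06 FPKM in the libraries labelled CKO, and 1.37 and 1.12 FPKM in WT. Both libraries labelled CKO lay above the other 4 for Hist1h3i, on 16 and 15 reads. Hist1h3e stood at 1.25 and 1.68 FPKM in BTg, 1.34 and 0.944 FPKM in the libraries labelled CKO, and 1.21 and 0.862 FPKM in WT. Both BTg libraries lay above both WT libraries for Hist1h3e, by as little as 1.25 against 1.21 FPKM.

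All 13 H4 genes encode the same protein of 103 residues, yet their mean levels ranged 154-fold, between 0.0512 and 7.88 FPKM. The lowest, Hist1h4b, had 2 reads in all 6 libraries together. The highest, Hist1h4n, shares 85.6% of its 50-base stretches, so both ends of this range are uncertain. Hist1h4n stood at 11.9 and 6.53 FPKM in BTg, 4.83 and 6.82 FPKM in the libraries labelled CKO, and 10.1 and 7.16 FPKM in WT. Hist1h4i stood at 4.60 and 3.31 FPKM in BTg, 6.03 and 3.41 FPKM in the libraries labelled CKO, and 4.87 and 4.69 FPKM in WT. Hist1h4d stood at 5.59 and 2.0 FPKM in BTg, 1.73 and 2.68 FPKM in the libraries labelled CKO, and 4.45 and 2.53 FPKM in WT. For Hist1h4n both libraries labelled CKO lay below both WT libraries, while for Hist1h4i and Hist1h4d these groups overlapped. Hist1h4h, whose hairpin and promoter are printed above, stood at 3.77 and 3.56 FPKM in BTg, from 27 and 25 reads. It stood at 1.20 and 0.480 FPKM in the libraries labelled CKO, from 10 and 4 reads, and at 4.31 and 1.67 FPKM in WT, from 36 and 12 reads. The libraries labelled CKO were the lowest of the 6, and BTg and WT overlapped.

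**Figure D2:**
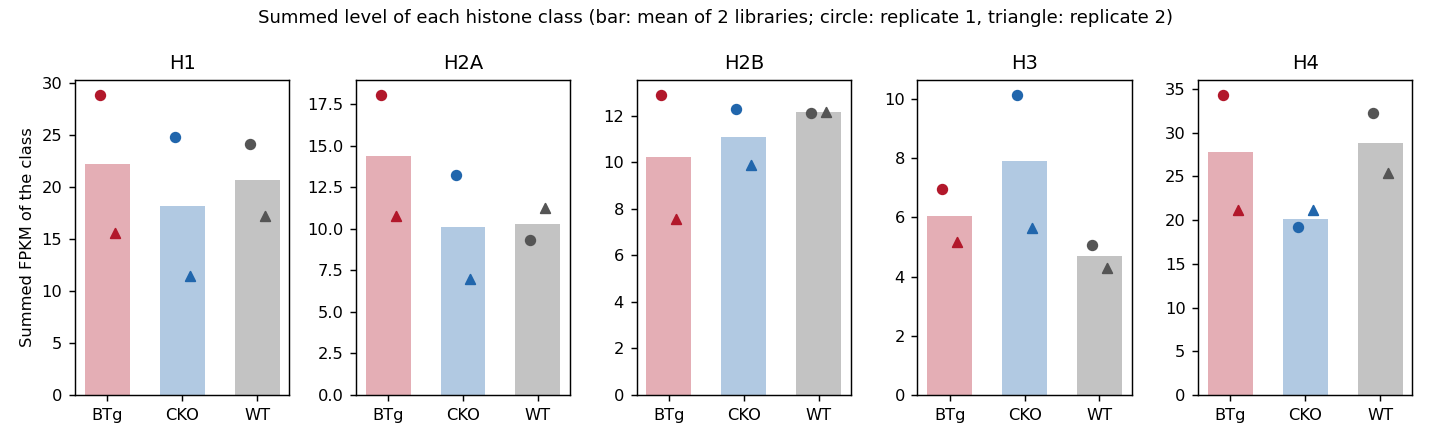
Summed FPKM of each histone class; bars are the means of the 2 libraries of BTg, CKO and WT, circles are replicate 1 and triangles replicate 2, and each panel has its own axis starting at 0. In H4 both CKO libraries, at 19.2 and 21.1 FPKM, lie below both WT libraries, at 32.2 and 25.3 FPKM, and in H3 both lie above.

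Summed over a class, the H4 genes of the libraries labelled CKO lay below WT and the H3 genes above. The 13 H4 genes summed to 19.2 and 21.1 FPKM in the libraries labelled CKO (mean 20.2 ± 1.34, SD, n = 2) and to 32.2 and 25.3 FPKM in WT (28.8 ± 4.86, n = 2). This is a log2 ratio of means of -0.51, which ranged over -0.67 to -0.33 when each of these 4 libraries was left out in turn. The 9 H3 genes summed to 10.1 and 5.65 FPKM in the libraries labelled CKO (7.90 ± 3.18) and 5.08 and 4.29 FPKM in WT (4.68 ± 0.560), a log2 ratio of 0.75. Without replicate 1 labelled CKO, where Hist1h3h was high, the H3 ratio was 0.27. H1 summed to 24.8 and 11.4 FPKM in the libraries labelled CKO and 24.1 and 17.2 FPKM in WT. H2A summed to 13.3 and 6.99 FPKM in the libraries labelled CKO and 9.33 and 11.2 FPKM in WT, and H2B to 12.3 and 9.90 FPKM in the libraries labelled CKO and 12.1 and 12.2 FPKM in WT. H1, H2A and H2B overlapped between these groups. With 2 libraries against 2, an exact permutation test cannot go below a two-sided p of 0.333, so class sums were not tested.

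No single gene of the set passed the test in the libraries labelled CKO against WT. A gene was tested when it reached 1 FPKM in at least 2 of the 6 libraries, which 23 of the 57 did (3 H1, 5 H2A, 5 H2B, 3 H3 and 7 H4). Of these 23, 0 had limma adjusted p under 0.05, where the count over all 10798 genes tested was also 0 (0%), and limma voom on recovered reads called 0 of 26. At unadjusted p under 0.05, 0 of the 23 were higher and 2 were lower, where 3.11% of all genes tested were higher and 1.09% lower. The 2 were Hist1h4h, with a log2 difference of -1.06 (SE 0.38, limma adjusted p = 1), and Hist2h2ac, with a log2 difference of -0.64 (SE 0.24, limma adjusted p = 1). Groups did not overlap for 2 higher genes and 7 lower genes of the 23, where 11.5% and 8.96% of all genes tested did so. All 7 H4 genes tested had negative differences, from -1.06 to -0.05, and 3 of them (Hist1h4h, Hist1h4c and Hist1h4n) had groups that did not overlap. Over all 13 H4 genes, with the untested ones, 10 were lower and 3 were higher.

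Other genes with the smallest p values in this comparison were Hist1h3i, Hist1h2bj and Hist1h3h, with log2 differences of 0.48 (SE 0.22), 0.54 (SE 0.28) and 0.85 (SE 0.47), and Hist1h1e, with -0.40 (SE 0.22). Without replicate 1 labelled CKO the Hist1h3h difference was 0.13. The difference of Hist1h1c was -0.22 (SE 0.51), and it was 0.03 without WT replicate 1 and 0.35 without replicate 2 labelled CKO. The median log2 difference was 0.01 over all 57 genes, with 29 higher and 27 lower, and -0.03 over all genes tested. Without replicate 1 labelled CKO the median over the 57 was -0.09.

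In BTg against WT the histone genes likewise gave no call. Of the 23 tested, 0 had limma adjusted p under 0.05, where 2 of 10798 genes did (0.0185%), and 0 had unadjusted p under 0.05 in either direction, where 0.769% of all genes tested were higher and 0.852% lower. Limma voom on recovered reads called 0 of 26, where 0.0251% of all genes it tested were called. Groups did not overlap for 4 higher and 3 lower genes of the 23, where 14.7% and 10.4% of all genes tested did so. Among the 4 higher, Hist1h3h was counted on 1.2760 FPKM in BTg replicate 1 against 1.2756 FPKM in WT replicate 2, with 8 reads in each. The 3 smallest p values in each direction belonged to Hist1h2bj, Hist1h2ak and Hist1h2ai, with log2 differences of 0.63 (SE 0.28), 0.63 (SE 0.32) and 0.47 (SE 0.38), and to Hist2h2be, Hist1h3i and Hist1h1b, with -0.45 (SE 0.35), -0.26 (SE 0.22) and -0.39 (SE 0.35). The adjusted p from limma was 1 for all 6. Hist1h2ai, an H2A gene, stood at 2.50 and 1.19 FPKM in BTg and 0.715 and 1.33 FPKM in WT, and these ranges overlapped.

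By class, BTg overlapped WT in 4 of the 5 sums. H1 summed to 28.8 and 15.5 FPKM in BTg and 24.1 and 17.2 FPKM in WT. H2A summed to 18.1 and 10.8 FPKM in BTg and 9.33 and 11.2 FPKM in WT, with a log2 ratio of means of 0.49, and 0.06 without BTg replicate 1. H3 did not overlap, at 6.94 and 5.18 FPKM in BTg and 5.08 and 4.29 FPKM in WT, a log2 ratio of 0.37, and 0.15 without BTg replicate 1. H4 summed to 34.4 and 21.2 FPKM in BTg and 32.2 and 25.3 FPKM in WT. H2B summed to 12.9 and 7.55 FPKM in BTg and 12.1 and 12.2 FPKM in WT, so that the BTg libraries lay on either side. The median log2 difference was 0.00 over all 57 genes, with 29 higher and 26 lower, and 0.02 over all genes tested.

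Between BTg and the libraries labelled CKO more of the histone genes differed at unadjusted p, and again none passed the adjusted threshold. Of the 23 tested, 0 had limma adjusted p under 0.05, where 2 of 10798 did (0.0185%), and limma voom on recovered reads called 0 of 26, where 0.044% of all genes it tested were called. At unadjusted p under 0.05, 3 were higher and 1 was lower in BTg, where 2.78% of all genes tested were higher and 6.01% lower. The lowest adjusted p was that of Hist1h4h, with a log2 difference of 1.37 (SE 0.38, limma adjusted p = 0.435). Hist2h2ac had a log2 difference of 0.80 (SE 0.24, limma adjusted p = 0.470), and Hist1h1e 0.58 (SE 0.22, limma adjusted p = 0.537). Hist1h3i was the lower gene, at -0.74 (SE 0.22, limma adjusted p = 0.470). Hist1h2bk and Hist1h1b followed it among lower genes, at -0.76 (SE 0.46) and -0.52 (SE 0.35).

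Groups did not overlap for 5 higher genes and 2 lower genes of the 23, where 17.8% and 21.8% of all genes tested did so. BTg and WT were each compared with the same libraries labelled CKO, so the low values of Hist1h4h, Hist2h2ac and Hist1h1e there enter both comparisons. The H4 sum was 34.4 and 21.2 FPKM in BTg and 19.2 and 21.1 FPKM in the libraries labelled CKO. These did not overlap, by 21.2 against 21.1 FPKM, and the log2 ratio of means was 0.46, and 0.07 without BTg replicate 1. The median log2 difference was 0.01 over all 57 genes, with 29 higher and 28 lower, and 0.06 over all genes tested. Without replicate 1 labelled CKO the median over the 57 was 0.11.

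**Figure D3:**
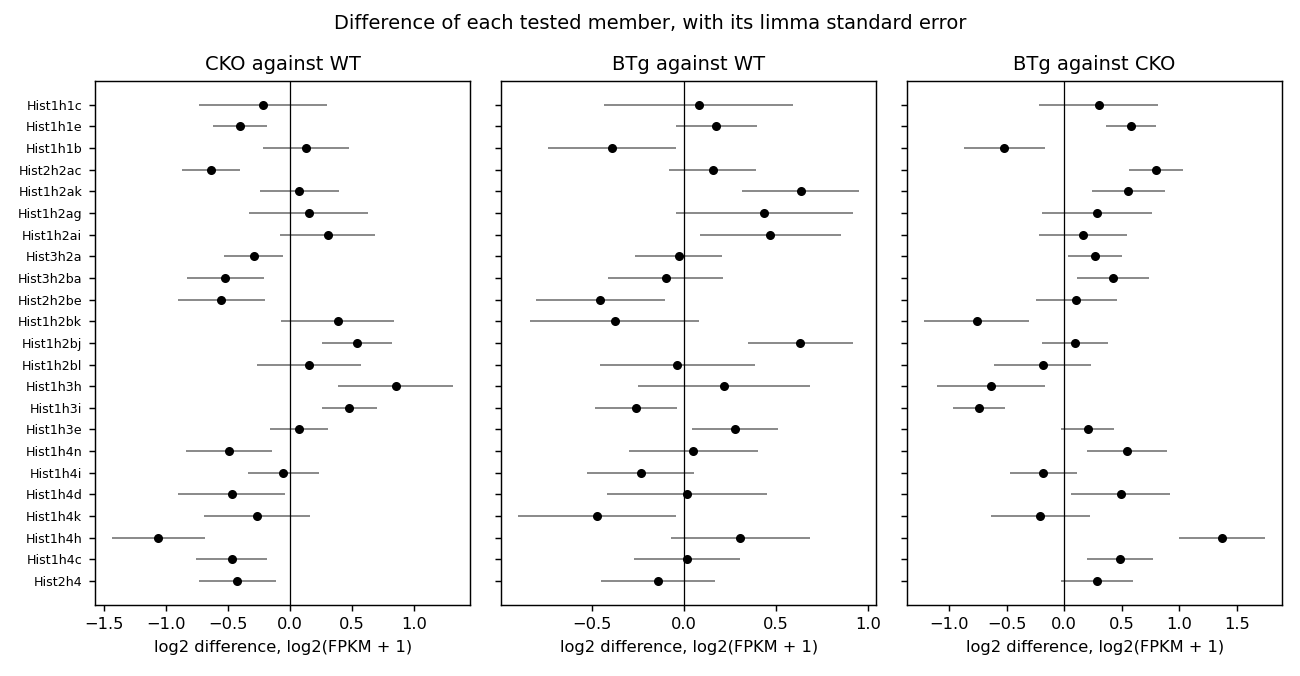
Log2 difference of each of the 23 tested histone genes, on the log2(FPKM + 1) scale, in the 3 comparisons; points are limma estimates, bars are 1 standard error on either side, and each panel has its own axis. All 7 H4 genes, at the bottom of the left panel, lie at or below -0.05 in CKO against WT, and Hist1h4h has the largest difference in BTg against CKO, at 1.37.

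S-phase and replication genes, a list that includes Pcna, Mcm5 and Rrm2, differed from the histone sum in how they varied within WT and within BTg. Their 35 genes summed to 382 and 404 FPKM in BTg, 937 and 658 FPKM in the libraries labelled CKO, and 377 and 782 FPKM in WT. Over the same libraries the 57 histone genes summed to 101 and 60.2 FPKM in BTg, 79.8 and 55.1 FPKM in the libraries labelled CKO, and 82.8 and 70.3 FPKM in WT. Replicate 2 had 1.06 times the S-phase sum of replicate 1 and 0.595 times its histone sum in BTg, 0.702 and 0.691 times in the libraries labelled CKO, and 2.08 and 0.849 times in WT. The ratio of the histone sum to the S-phase sum was 0.265 and 0.149 in BTg, 0.0851 and 0.0837 in the libraries labelled CKO, and 0.220 and 0.0899 in WT. Both sums use lengths that include introns, so the size of this ratio depends on gene structure, and it was not computed per exon length. The libraries labelled CKO had the lowest ratios of the 6, with WT replicate 2 next. Without Hist1h1c the histone sums were 75.4 and 47.9 FPKM in BTg, 58.1 and 45.7 FPKM in the libraries labelled CKO, and 62.7 and 56.3 FPKM in WT, with the 6 libraries in the same order of level.

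Of the S-phase genes named above, Rrm2 and Mcm5 showed the same split of the WT libraries, and Pcna showed it far less. Pcna stood at 149 and 127 FPKM in BTg, 287 and 179 FPKM in the libraries labelled CKO, and 176 and 204 FPKM in WT. Mcm5 stood at 5.37 and 5.90 FPKM in BTg, 16.6 and 11.4 FPKM in the libraries labelled CKO, and 4.78 and 14.3 FPKM in WT. Rrm2, which encodes the small subunit of ribonucleotide reductase, stood at 8.78 and 13.1 FPKM in BTg, 44.7 and 32.7 FPKM in the libraries labelled CKO, and 4.42 and 38.9 FPKM in WT. Mki67, a proliferation marker on the mitosis list, stood at 5.59 and 9.87 FPKM in BTg. It stood at 30.0 and 26.0 FPKM in the libraries labelled CKO, and 4.96 and 28.3 FPKM in WT. For Rrm2 and Mki67, WT replicate 2 was near the libraries labelled CKO, and WT replicate 1 near BTg. The 20 mitosis genes summed to 74.5 and 107 FPKM in BTg, 444 and 263 FPKM in the libraries labelled CKO, and 71.5 and 286 FPKM in WT.

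**Figure D4:**
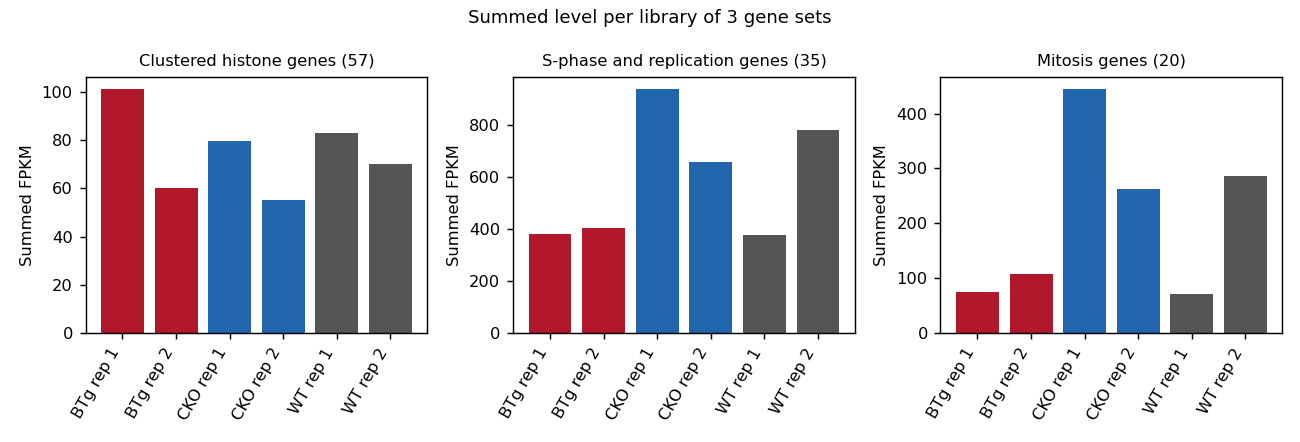
Summed FPKM in each library of the 57 clustered histone genes, 35 S-phase and replication genes and 20 mitosis genes, with BTg in red, CKO in blue and WT in grey, each panel on its own axis starting at 0. The histone sums, at 55.1 to 101 FPKM, do not show the step between WT replicates 1 and 2 that the S-phase and mitosis sums show.

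By counts, 35 of the 35 S-phase genes had positive differences in the libraries labelled CKO against WT, with a median of 0.59, and 33 of 35 had negative differences in BTg against WT, with a median of -0.41. In BTg against the libraries labelled CKO all 35 were negative, with a median of -0.96. The medians against WT depended on its 2 libraries, in a check chosen after the data were seen. Without WT replicate 1 the median was -0.01 in the libraries labelled CKO against WT, with 17 of 35 genes positive, and -0.90 in BTg against WT. Without WT replicate 2 it was 1.18 in the libraries labelled CKO against WT, and 0.18 in BTg against WT, with 22 of 35 positive. It was -0.26 in BTg against WT without BTg replicate 1. None of these genes had limma adjusted p under 0.05 in any comparison, of 33 tested. At unadjusted p under 0.05 the counts were 0 in the libraries labelled CKO against WT, where 3.11% of all genes tested were higher and 1.09% lower, and 0 in BTg against WT, where 0.769% were higher and 0.852% lower. In BTg against the libraries labelled CKO 10 of the 33 were lower, where 6.01% of all genes tested were, and 0 were higher, where 2.78% were. Erythroid markers, 13 genes with a row, summed to 150 and 231 FPKM in BTg, 530 and 785 FPKM in the libraries labelled CKO, and 139 and 1252 FPKM in WT, and were thus also high in WT replicate 2. Their part in the S-phase values was not tested.

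Summed values were higher for the variants H2afz and H2afx, and for H3f3a and H3f3b, than for the clustered genes of their class in all 6 libraries. Clustered genes without a row, such as Hist2h2aa1 and Hist2h3b, are missing from these sums. The part of RNA selection and of the counting of reads with several origins in these ratios was not tested. Per exon length, H3f3a and H3f3b together stood 45.8-fold and 38.7-fold above the summed clustered H3 genes in BTg, 30.3-fold and 39.6-fold in the libraries labelled CKO, and 63.0-fold and 56.0-fold in WT. H2afz and H2afx together stood 11.5-fold and 14.6-fold above the clustered H2A genes in BTg, 40.3-fold and 37.3-fold in the libraries labelled CKO, and 27.4-fold and 23.3-fold in WT. The 3 groups did not overlap in either ratio except that BTg and the libraries labelled CKO overlapped for H3. For the linker histones H1f0 and H1fx the ratio to the clustered H1 genes was 0.972 and 1.17 in BTg, 2.49 and 3.46 in the libraries labelled CKO, and 1.44 and 1.51 in WT.

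H2afz, a variant of H2A found around transcription start sites, stood at 184 and 128 FPKM in BTg, 483 and 211 FPKM in the libraries labelled CKO, and 237 and 222 FPKM in WT. H3f3b, which encodes the variant H3 deposited outside replication, stood at 372 and 231 FPKM in BTg, 361 and 248 FPKM in the libraries labelled CKO, and 364 and 269 FPKM in WT. H1f0, a linker histone of differentiated cells, stood at 27.5 and 17.5 FPKM in BTg, 60.7 and 38.2 FPKM in the libraries labelled CKO, and 34.5 and 25.6 FPKM in WT. For H1f0 the libraries labelled CKO lay above all others, with a log2 difference of -1.10 (SE 0.38, limma adjusted p = 0.507) in BTg against the libraries labelled CKO. Of the 11 variant genes, 10 were tested and 0 had limma adjusted p under 0.05 in any comparison. At unadjusted p under 0.05, H1fx was higher in the libraries labelled CKO than in WT (log2 difference 0.78, SE 0.24, limma adjusted p = 1). H1fx entered the test only through the libraries labelled CKO, at 1.02 and 1.20 FPKM, so the filter favours this direction. It stood at 0.0924 and 0.377 FPKM in WT, and its counts were 2 to 26 reads a library. At the same threshold 0 differed in BTg against WT, and H1f0 was lower in BTg than in the libraries labelled CKO. The medians over the 11 were 0.27 in the libraries labelled CKO against WT, -0.11 in BTg against WT and -0.21 in BTg against the libraries labelled CKO.

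Genes of histone message transcription and 3′ processing gave no calls either. Slbp, which binds the hairpin, stood at 6.17 and 7.17 FPKM in BTg and 13.6 and 10.8 FPKM in the libraries labelled CKO. It stood at 6.0 and 12.2 FPKM in WT, a split of WT like that of the S-phase sum. Npat, the coactivator of the clustered genes, stood at 1.54 and 1.93 FPKM in BTg, 1.49 and 2.21 FPKM in the libraries labelled CKO, and 1.5 and 2.24 FPKM in WT, and all 3 groups overlapped. Of the 22 genes of this list, 21 were tested and 0 had limma adjusted p or unadjusted p under 0.05 in any comparison. Their medians were 0.00 in the libraries labelled CKO against WT, -0.06 in BTg against WT and -0.06 in BTg against the libraries labelled CKO. The median in BTg against WT was 0.05 without WT replicate 2. The 23 histone chaperone and import genes had medians of 0.16, -0.12 and -0.22 in the same order of comparisons, with 21 tested, 0 called after adjustment, and 1, in BTg against the libraries labelled CKO, lower at unadjusted p under 0.05. Their median was -0.09 in the libraries labelled CKO against WT without WT replicate 1, and 0.14 in BTg against WT without WT replicate 2.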

How the data were processed

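Per the labels' protocols, TRIzol RNA was turned into NEBNext Ultra libraries. The submitters' processing notes name GRCm38, featureCounts 1.6.0, HISAT2 2.1.0 and Trimmomatic 0.38. The sources used here give no settings, annotation release, strand or treatment of reads with several origins. FPKM values were deposited, with 1 column per library. With transcript span (the median over a gene's transcripts, introns included) as the length, every value above 0 was a whole number of reads within 0.01, which gives the library totals.

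Names, positions and transcripts came from GENCODE M21, promoters from RefSeq. A gene was tested if 2 or more libraries reached 1 FPKM, on log2(FPKM + 1) with limma 3.58.1 in R 4.3.3, all 6 libraries in 1 fit (eBayes with a trend, no block). P-values were adjusted by Benjamini-Hochberg over all genes tested, with a threshold of 0.05. The pseudocount shrinks the fold changes of low genes. The fit was tested on simulated data. Replicate numbers came from the bracketed column names in the titles; both BTg titles otherwise end in 1.

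The genes named are the 3 highest of each class and, where none passed, the 3 smallest p per direction, plus a fixed set of related genes. Members and lists were chosen with earlier results of these data known. Hist1h4c in the text is named to complete a small count, after its values were seen. There were 15 alternatives: pseudocounts, filters, scalings, a replicate block, variance models, limma voom on recovered reads (at least 10 reads in 2 libraries) and leaving out each library. Added after the data were seen were exon length for the divergent pairs and leaving out each library for the medians of 3 gene lists. Figures were drawn with matplotlib 3.10.9.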

Additional observations from a re-analysis of the deposited data

How the results depend on the processing

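For the 22 differences of single histone genes that are given in the text, 309 alternative fits gave 0 adjusted p under 0.05, and the lowest was 0.0905. Of the 22, Hist1h1c in both comparisons of BTg and Hist1h4h in BTg against WT appear in this section only. With all 6 libraries these differences were above 0. The direction of the named genes turned in 7 of the alternative fits, each with a library left out. Hist1h1c in CKO against WT was 0.030 without WT replicate 1 and 0.35 without CKO replicate 2, over a range of -0.79 to 0.35. In BTg against WT it was -0.17 without WT replicate 2 and -0.43 without BTg replicate 1, over a range of -0.43 to 0.59. In BTg against CKO it was -0.27 without CKO replicate 2 and -0.21 without BTg replicate 1, over a range of -0.27 to 0.87. Hist1h4h in BTg against WT was -0.19 without WT replicate 2, over a range of -0.19 to 0.80. The cause was not tested.

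The count of all genes past the threshold was 65 without a filter in CKO against WT (0 in the report), and ranged over 0 to 67 with a library left out, 67 without CKO replicate 2. In BTg against WT the 2 genes became 46 without a filter, 1 with at least 1 FPKM in all 6 libraries, 0 with quantile normalization, 4 with limma voom, and 0 to 0 with a library left out. In BTg against CKO the 2 became 81, 1, 0 and 7 under the same settings, and 0 to 238 with a library left out, 238 without CKO replicate 2. Leaving out a library leaves a lone sample that is assumed to vary like the other groups, and Prdm1 does not pass the filter without a BTg library.

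The median over the 57 histone genes ranged over -0.093 to 0.10 in CKO against WT and -0.043 to 0.11 in BTg against CKO with a library left out, and was 0.22 with limma voom in BTg against CKO. Log2 ratios of class sums with a library left out ranged, in CKO against WT, over -0.86 to 0.26 for H1, -0.56 to 0.37 for H2A and 0.27 to 1.12 for H3. In BTg against WT they ranged over -0.69 to 0.087 for H2B, -0.44 to 0.26 for H4 and -0.35 to 0.40 for all classes. In BTg against CKO they ranged over -0.22 to 0.96 for H1, 0.087 to 1.05 for H2A, -0.56 to 0.22 for H2B, -0.74 to 0.10 for H3, 0.069 to 0.77 for H4 and -0.16 to 0.58 for all classes. For H1 and H2A, the lowest values in CKO against WT and the highest in BTg against CKO came without CKO replicate 1. For H2B, H4 and all classes in the comparisons with BTg, the lowest came without BTg replicate 1 and the highest without BTg replicate 2.

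The labels do not say that replicate numbers pair libraries. Same-numbered libraries deviated together with r = 0.17 for CKO with WT, 0.47 for BTg with WT and 0.46 for BTg with CKO. With replicate number as a block, 0 genes passed in each comparison, and Hist1h4h had adjusted p = 0.625, 0.981 and 0.230 in CKO against WT, BTg against WT and BTg against CKO. The library numbered 1 was the higher in all 3 groups for 8 of the 23 tested histone genes (34.8%), against 14.9% of all genes tested. Hist1h4h rests on 4 to 36 reads a library.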
